A study of Sus scrofa with 41 samples.

Results

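The circadian clock genes were taken by name: the activators ARNTL (listed in the gene table as BMAL1) and CLOCK, the period genes PER1, PER2 and PER3, the cryptochromes CRY1 and CRY2, the nuclear receptors NR1D1 and NR1D2, and the output gene DBP. Of these 10 genes, 9 could be matched by symbol to an identifier among the 25880 genes of the count tables. All 9 passed the filter on low counts, which left 11146 genes to be tested. PER3 was not analysed here. The genes were measured by RNA sequencing of psoas major, the tenderloin muscle, in 41 boars of 2 commercial Danish lines, with 1 sample per pig taken right after slaughter. There were 13 Danbred Duroc boars, aged 131 to 156 days, and 28 Danbred Landrace boars, aged 147 to 166 days. The paper describes a feed mixture and a feeder open to 1 pig at a time, and it names no treatment. The labels give each pig's age, its feed conversion ratio (FCR, feed eaten per weight gained, so that a low value marks an efficient pig), the RNA integrity number of its sample (RIN, where a low value marks degraded RNA) and a batch from 1 to 5, which the study used to correct for different slaughter days. The labels give no time of day for the sampling. FCR ranged from 1.83 to 2.18 in Duroc and from 1.92 to 2.25 in Landrace, and RIN from 7.0 to 8.8 and from 6.5 to 8.3.

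The circadian clock is a loop of transcription factors that runs in nearly every cell, skeletal muscle included. The proteins of ARNTL and CLOCK pair up and switch on the PER and CRY genes, whose proteins then collect and block that pair, so that a cycle lasts about a day. In a second loop the nuclear receptors NR1D1 and NR1D2 (REV-ERB alpha and beta) are switched on by the same pair and repress ARNTL. DBP, a transcription factor that drives daily output genes, is a direct target of the pair too. In tissues sampled around the clock, ARNTL is therefore known to peak roughly opposite to PER2, DBP and NR1D1. PER1 is in addition a rapid target of stress hormones and of cAMP signals.

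The counts on genes were 22188911 to 25954816 per pig, and the 3 measured markers of skeletal muscle, ACTA1, CKM and DES, out of 9 listed, summed to 101500 to 187300 CPM (counts scaled to library size) per pig. Batch 1 held a single Duroc boar, batch 2 held 3 Duroc and 12 Landrace, batch 3 held 2 and 7, batch 4 held 3 and 2, and batch 5 held 4 and 7. RIN was lowest in batch 5, with a median of 7.7 against 8.1 to 8.4 in the other batches. One library, Landrace replicate 14 of batch 2, stood apart in several clock genes and is described on its own further on. In whole muscle, a change in the RNA per cell and a change in the kinds of cells present cannot be told apart. Levels are given below as CPM after TMM scaling of the library sizes, and since CPM holds no correction for gene length, levels of different genes are not compared.

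Among the activators, ARNTL (ENSSSCG00000013397, Sscrofa11.1 chromosome 2, 45895637 to 46025174) ranged from 1.32 to 10.6 CPM with a median of 3.81, an 8.03-fold range, or 4.94-fold without its highest pig, Landrace replicate 14. It was among the more variable genes, with the SD of its log2 CPM at percentile 88 of all genes tested. CLOCK (ENSSSCG00000008909, chromosome 8, 54793323 to 54910192) was steady, at 13.1 to 21.4 CPM with a median of 16.7, a 1.62-fold range and percentile 7.13. The spread over pigs was thus wide for ARNTL and narrow for CLOCK.

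Among the repressors, PER1 (ENSSSCG00000017983, chromosome 12, 53361863 to 53376723) ranged from 53.9 to 284 CPM with a median of 139. PER2 (ENSSSCG00000016338, chromosome 15, 137793419 to 137837854) ranged from 5.31 to 24.2 CPM with a median of 12.7. CRY1 (ENSSSCG00000000164, chromosome 5, 13275265 to 13429566) varied little, from 4.38 to 8.48 CPM around a median of 6.53. CRY2 (ENSSSCG00000013270, chromosome 2, 16587101 to 16620380) spanned 55.1 to 250 CPM with a median of 130. The highest pig exceeded the lowest 5.27-fold for PER1, 4.55-fold for PER2 and 4.53-fold for CRY2, but only 1.94-fold for CRY1.

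In the second loop, NR1D2 (ENSSSCG00000027017, chromosome 13, 10756954 to 10791219) ranged from 32.0 to 71.2 CPM with a median of 53.1. NR1D1 (ENSSSCG00000036933, chromosome 12, 22263549 to 22274131) ranged from 1.97 to 16.5 CPM with a median of 3.14, but its value needs care. At its higher-coordinate end, 3626 bases (22270506 to 22274131) overlap THRA, the thyroid hormone receptor alpha gene on the opposite strand, and a read pair on both genes counts for neither when strand is ignored. A median of 81 pairs per pig was left to NR1D1 in the unstranded counts, whereas the sum of both strand columns held a median of 2994, and that sum also takes in pairs of THRA. DBP (ENSSSCG00000003148, chromosome 6, 53986955 to 53993044) ranged from 2.00 to 17.7 CPM with a median of 4.43, an 8.84-fold range and percentile 90.1 in SD. CLOCK shares 3030 bases with TMEM165, and its strand sum was 1.48 times its unstranded count. For ARNTL this ratio was 1.28, and it was 1 for the other 6 genes.

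**Figure D1:**
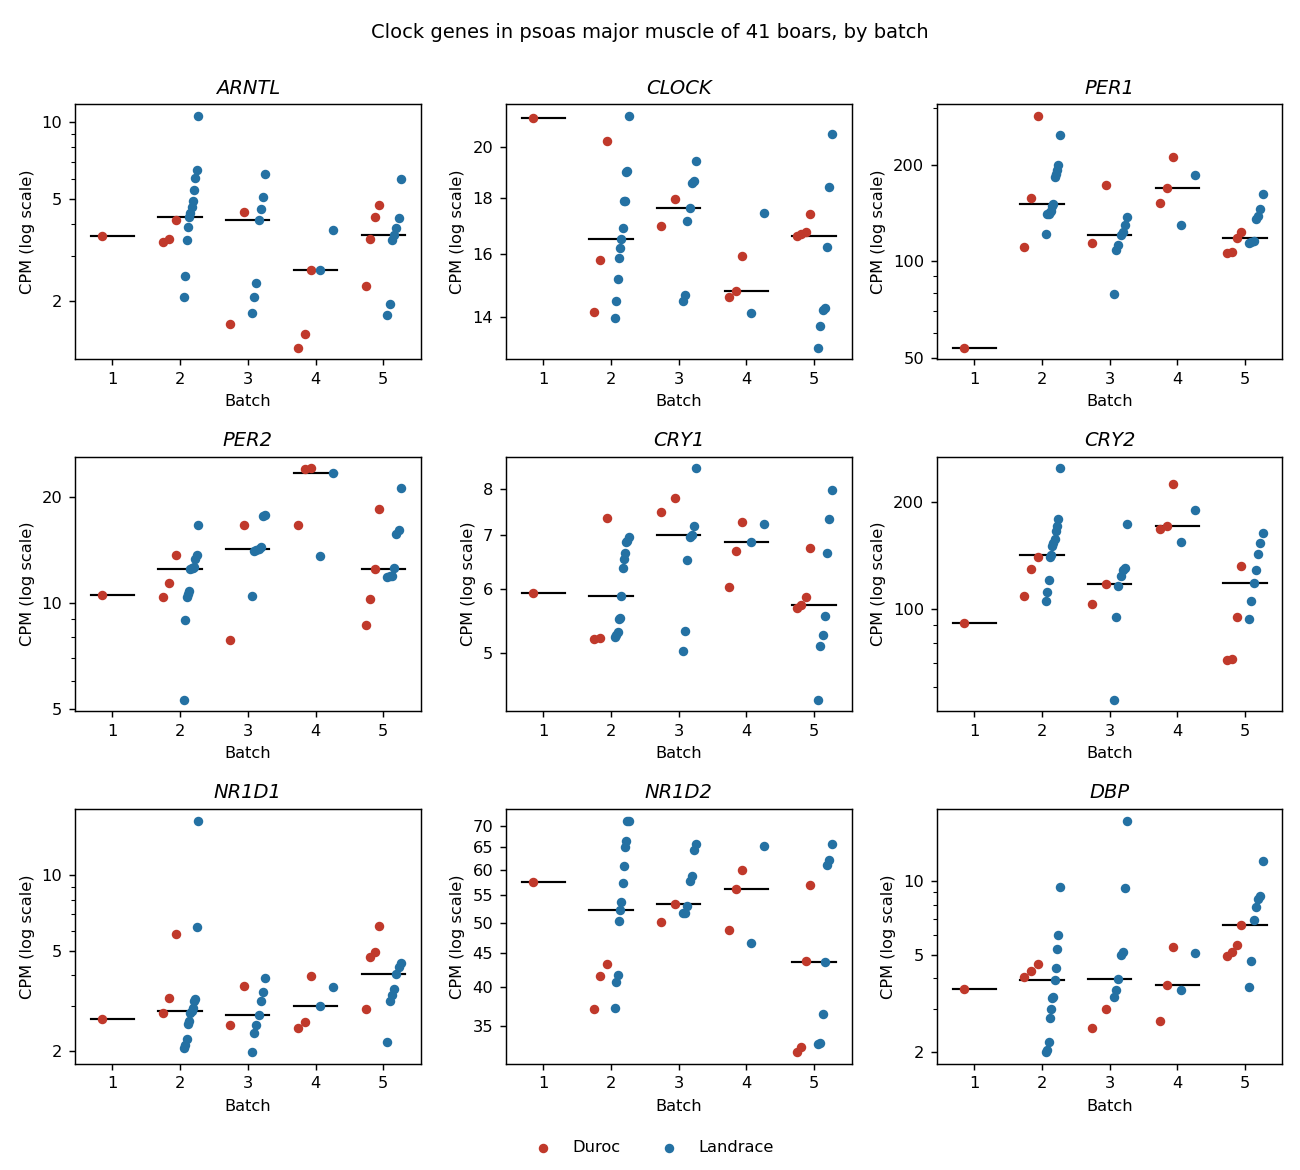
Level of each clock gene in each of 41 pigs, in CPM on a log axis, against the batch. Points are single pigs (red Duroc, blue Landrace) and the black line is the median of the batch. PER2 in batch 4 sat at 13.6 to 24.2 CPM with its median, 23.5, above every other pig, while the single pig of batch 1 held the lowest PER1, 53.9 CPM.

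The first comparison asked whether the clock genes differed between batches, in a model that also held FCR, RIN, age and breed. PER1, CRY2 and PER2 did. In edgeR's quasi-likelihood test with Benjamini-Hochberg adjustment over all genes, the false discovery rate (FDR) was 0.00538 for PER1, 0.0115 for CRY2 and 0.0271 for PER2, against a threshold of 0.1. With 3 of 9 members called, the share stood beside 24.1% of all genes tested. The FDR was 0.261 for ARNTL, 0.368 for CLOCK, 0.440 for CRY1, and 0.706 to 0.790 for DBP, NR1D1 and NR1D2. Batch took 44.4% of the sum of squares of PER1 beyond the other terms, which is percentile 99.2 of all genes, 32.5% of that of PER2 and 26.8% of that of CRY2.

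For PER1 the single pig of batch 1, Duroc replicate 2, decided the batch call. This boar had 53.9 CPM, while the others ranged from 79.3 to 284 CPM, and without it the FDR rose to 0.308. For PER2 and CRY2 the calls both came with the 5 pigs of batch 4, and leaving that batch out gave an FDR of 0.517 for PER2 and of 0.128 for CRY2. With the Landrace pigs alone, none of the 3 passed (FDR 0.183 for PER1, 0.139 for PER2 and 0.362 for CRY2). Among the larger batches no member was called. Between batches 3 and 2 none of 9 passed, where 0.179% of all genes did, and none had an unadjusted p under 0.05. Between batches 5 and 2 none passed either, where 11.3% of all genes did. That share rested on few pigs, since 46 of 11150 genes passed without the pigs of RIN below 7. Between batches 5 and 3 again none passed, where 6.89% of all genes did, or 223 of 11150 without the pigs of RIN below 7. CRY2 alone had an unadjusted p under 0.05 there with all pigs (p = 0.0327, FDR 0.205 in edgeR).

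The contrasts of batch 4 were added after these values had been seen. In batch 4 PER2 stood at 24.2, 16.7 and 24.1 CPM in the 3 Duroc boars and at 23.5 and 13.6 CPM in the 2 Landrace boars. In the remaining 36 pigs PER2 lay between 5.31 and 21.2 CPM, so none reached the median of batch 4, though the groups overlapped. PER2 was 0.85 ± 0.19 (SE) log2 units higher in batch 4 than in batch 2 (edgeR FDR 0.00480). CRY2 stood at 154 to 225 CPM in batch 4 with a median of 172, a level that 3 of the other 36 pigs passed. CRY2 was 0.47 ± 0.15 log2 units higher than in batch 2 (edgeR FDR 0.0343) and 0.68 ± 0.16 higher than in batch 3 (edgeR FDR 0.0827). The call against batch 3 was lost in 9 of 41 fits with a single pig left out, without a filter on low counts (FDR 0.133), under scaling by library size alone (FDR 0.175) and with the Landrace pigs alone (FDR 0.868). Scaling by library size moved the median of all genes by −0.14 in this contrast, and over all fits the difference of CRY2 was 0.50 to 0.80. ARNTL went the other way. Its values in batch 4 were 1.32, 2.64 and 1.48 CPM in Duroc and 2.66 and 3.81 CPM in Landrace, all 5 below the median of the other 36 pigs, and the difference from batch 2 was −0.90 ± 0.34 log2 units (edgeR FDR 0.0655).

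Against batch 2, then, 3 of 9 members were called, PER2 and CRY2 higher and ARNTL lower, where 23% of all genes were called. Against batch 3 CRY2 alone was called, where 0.763% of all genes were. Against batch 5 none was, where 1.83% of all genes were. PER2 was nevertheless 0.53 ± 0.22 log2 units above batch 3 and 0.54 ± 0.23 above batch 5, with edgeR FDR values of 0.283 and 0.337. The other members of the loop showed no call in batch 4. DBP, a target of the same activators as PER2, differed from batch 2 by 0.23 ± 0.32 log2 units and NR1D1 by −0.25 ± 0.35, with edgeR FDR values of 0.663 and 0.670. With 5 pigs in batch 4, the calls of CRY2 and ARNTL did not hold without each pig in turn, though the differences kept their direction. The call of CRY2 against batch 2 was lost without Duroc replicate 12 (0.37 log2 units, FDR 0.123) or Landrace replicate 24 (0.40, FDR 0.242), with age left out (FDR 0.124) and under scaling by library size alone (FDR 0.216). That scaling moved the median of all genes by −0.17 in this contrast, and over all fits the difference of CRY2 was 0.29 to 0.59. The call of ARNTL was lost without Duroc replicate 7 (−0.76 log2 units, FDR 0.123), Duroc replicate 12 (−0.80, FDR 0.155) or Landrace replicate 24 (−0.96, FDR 0.199), and without a filter on low counts (FDR 0.101). Without Landrace replicate 24 the number of all genes called between batches 4 and 2 went from 2559 to 443. With the Landrace pigs alone, neither was called (FDR 0.386 for CRY2 and 0.624 for ARNTL). The batch call of PER2 over all batches was lost without Landrace replicate 24 (FDR 0.106), while its difference between batches 4 and 2 held without each pig in turn (FDR 0.00182 to 0.0570). With the Landrace pigs alone, of which batch 4 held 2, PER2 was 0.60 log2 units higher than in batch 2 and not called (edgeR FDR 0.135).

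Other genes and markers differed between batches 4 and 2 as well, and the calls given here are of that contrast. Between batches 4 and 3 no gene of the lists below was called, and between batches 4 and 5 only ATF3 and MYC, both higher in batch 4. Between batches 5 and 2, EGR1, CD68 and CDH5 were also called lower and DES higher. Of the 6 measured immediate-early genes, which respond within minutes to stress, ATF3 was higher in batch 4 than in batch 2, by 2.14 ± 0.63 log2 units, and EGR1 and IER2 were lower, by −1.71 ± 0.59 and −0.88 ± 0.26. The summed level of these 6 genes was 384 to 895 CPM in batch 4 and 149 to 845 CPM in the other pigs. Of the 6 measured genes that glucocorticoids are known to raise, SGK1 alone was called, and it was lower, by −0.60 ± 0.20. The summed level of these was 338 to 478 CPM in batch 4 and 263 to 551 CPM elsewhere. The 4 fibroblast markers summed to 482 to 1540 CPM in batch 4 and to 482 to 10230 CPM elsewhere, with COL3A1 and PDGFRA called lower, and of the 4 leukocyte markers, with sums of 5.32 to 20.1 and 5.36 to 42.5 CPM, CD68 and LCP1 were called lower. Of the 2 measured endothelial markers, with sums of 46.8 to 120 and 25.1 to 134 CPM, CDH5 was called lower, and so was ADIPOQ, the 1 measured adipocyte marker. DES was called higher. Their part in the values of PER2, CRY2 and ARNTL was not tested.

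The second comparison was between the breeds. CRY2 and NR1D2 were higher in Landrace, and with all pigs no member was called lower. CRY2 had a median of 118 CPM in Duroc (71.5 to 225) and 141 CPM in Landrace (55.1 to 250), and the model put it 0.69 ± 0.15 log2 units higher in Landrace (edgeR FDR 0.00104). NR1D2 had a median of 48.9 CPM in Duroc (32.0 to 60.0) and 55.6 CPM in Landrace (32.9 to 71.2), a difference of 0.39 ± 0.14 (edgeR FDR 0.0429). The ranges of the breeds overlapped widely in both genes. The count of 2 of 9 members stood beside 33.1% of all genes called for breed, and 15.6% of all genes were called higher in Landrace. The median difference over the 9 members was 0.08 log2 units, beside −0.0024 over all genes.

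Of the other 7 members, ARNTL had the largest estimate, 0.37 ± 0.30 log2 units (edgeR FDR 0.385), followed by PER1 with 0.24 ± 0.15 (edgeR FDR 0.243), and CLOCK, CRY1, PER2, NR1D1 and DBP lay between −0.03 and 0.08. Without Landrace replicate 14 the estimate of NR1D1 went from 0.08 to −0.44 (edgeR FDR 0.0550), a call lower in Landrace. Without Landrace replicate 18 PER1 was called higher (edgeR FDR 0.0997). Within single batches, and without the covariates, neither breed difference passed. CRY2 was 0.26 higher in Landrace in batch 2 (exact permutation p = 0.202), 0.02 in batch 3 (exact p = 0.778) and 0.51 in batch 5 (exact p = 0.0606), but 0.12 log2 units lower in batch 4 (difference −0.12, exact p = 0.8). NR1D2 was higher by 0.42, 0.15, 0.01 and 0.19 log2 units in batches 2, 3, 4 and 5, with exact permutation p-values of 0.0571, 0.222, 1 and 0.467. The smallest p that batches 3 and 4 could give was 0.0556 and 0.2. The call of NR1D2 was lost without Duroc replicate 3 (FDR 0.137), Duroc replicate 5 (FDR 0.116) or Landrace replicate 20 (FDR 0.105), and under scaling by library size alone (difference 0.19, FDR 0.39), which moved the median of all genes by −0.18, so that relative to it NR1D2 differed by 0.37, and that of CRY2 held without each pig in turn.

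Markers of other cells differed between the breeds too. The 2 measured endothelial markers were both lower in Landrace, with summed levels of 25.1 to 110 CPM against 44.4 to 134 CPM in Duroc. PDGFRA, 1 of 4 fibroblast markers, and ADIPOQ were lower as well, and none of 4 leukocyte markers was called. The muscle markers ACTA1 and CKM were higher in Landrace, by 0.38 ± 0.11 and 0.24 ± 0.09 log2 units. Their part in the values of CRY2 and NR1D2 was not tested.

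The third comparison was with RIN. DBP fell with RIN, by 0.70 ± 0.22 log2 units per RIN unit (edgeR FDR 0.00979), and CRY2 and NR1D2 rose, by 0.40 ± 0.11 (edgeR FDR 0.00343) and 0.33 ± 0.11 (edgeR FDR 0.0172). These 3 of 9 members stood beside 51.8% of all genes called for RIN, 23.9% rising and 27.9% falling. Over the 41 pigs and without the other covariates, the log2 CPM of DBP had a Pearson correlation of −0.564 with RIN (permutation p = 0.00013) and a Spearman correlation of −0.602 (permutation p = 5e-05). Without the 2 pigs farthest from the median RIN it was −0.528, and within batches 2, 3 and 5 it was −0.675, −0.754 and −0.240. The call of DBP in the joint model was lost without Landrace replicate 1 (change −0.60, FDR 0.102). That pig had the lowest RIN, 6.5, and 9.48 CPM of DBP. The call was also lost under scaling by library size alone (change −0.39, FDR 0.118). That scaling moved the median of all genes by 0.30, and relative to the median DBP changed by −0.69.

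For CRY2 the Pearson correlation with RIN was 0.370 (permutation p = 0.0179) and the Spearman correlation 0.337 (permutation p = 0.0319), with 0.368 without the 2 farthest pigs and 0.286, 0.340 and 0.470 within batches 2, 3 and 5. For NR1D2 the Pearson correlation of 0.439 (permutation p = 0.00417) fell to 0.288 without the 2 farthest pigs, the Spearman correlation was 0.237 (permutation p = 0.134), and within batch 3 the sign was opposite, −0.435. The call of NR1D2 was lost without the pigs of RIN below 7 (FDR 0.274). NR1D1 had an estimate of −0.29 ± 0.24 (edgeR FDR 0.321) with all pigs and of −0.51 (edgeR FDR 0.000905) without Landrace replicate 14, but in the sum of the strand columns, with all pigs, it was −0.03 ± 0.12. CLOCK, CRY1, PER1, PER2 and ARNTL lay between 0.02 and 0.24.

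Markers of other cells moved with RIN as well. Of 4 fibroblast markers COL3A1 and PDGFRA rose, by 0.93 ± 0.29 and 1.62 ± 0.39 log2 units per RIN unit (edgeR FDR 0.00868 and 0.000875). CD3E, 1 of 4 leukocyte markers, had a change of −0.67 ± 0.31 (edgeR FDR 0.0758), and the muscle marker DES one of −0.35 ± 0.08 (edgeR FDR 0.000954), both called falling. Neither of the 2 endothelial markers nor ADIPOQ was called. Of the 6 glucocorticoid-responsive genes KLF9 alone was called, rising by 0.37 ± 0.14 (edgeR FDR 0.0331), and of the 6 immediate-early genes none was. Their part in the values of DBP, CRY2 and NR1D2 was not tested.

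**Figure D2:**
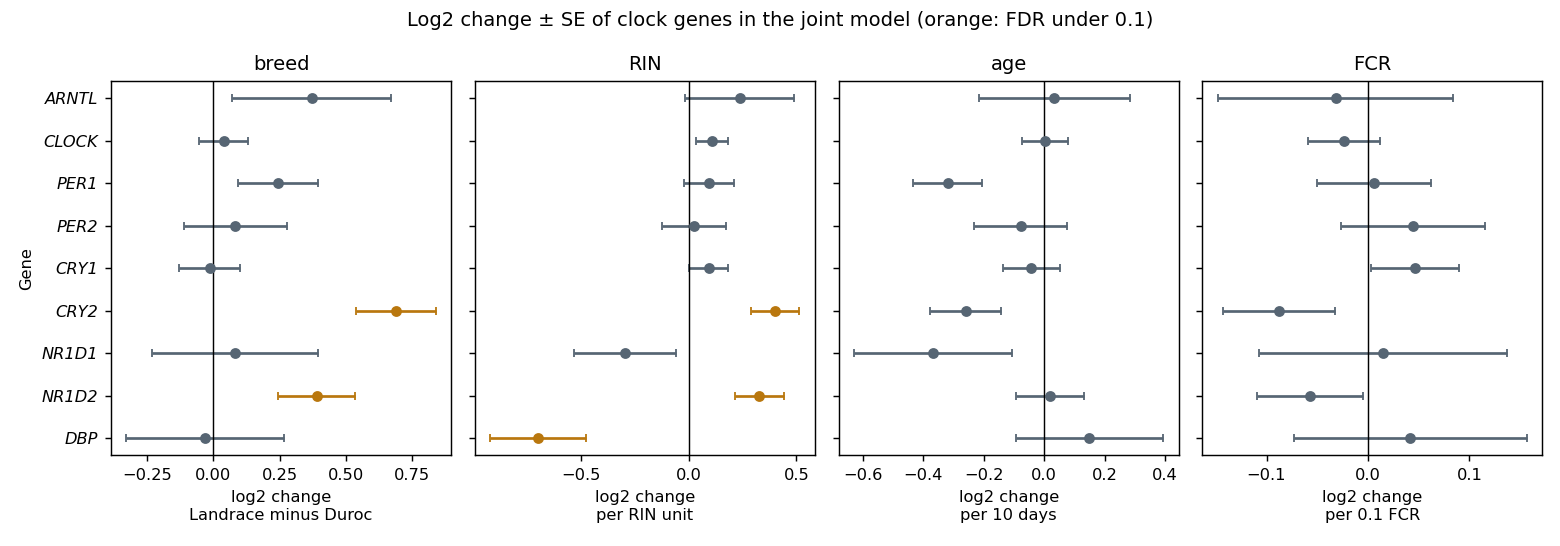
Log2 change of each clock gene in the joint model with its SE, for breed (Landrace minus Duroc), RIN (per unit), age (per 10 days) and FCR (per 0.1). Orange marks an FDR under 0.1: CRY2 and NR1D2 for breed and RIN, and DBP for RIN; no point is orange for age or FCR.

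The fourth comparison, with age at sampling, gave no call among the 9 members, beside 1.76% of all genes. PER1 came nearest, with a change of −0.32 ± 0.11 log2 units per 10 days of age (edgeR unadjusted p = 0.00784, FDR 0.168), and CRY2 was next with −0.26 ± 0.12 (unadjusted p = 0.0326, FDR 0.262). The highest PER1 value, 284 CPM, belonged to Duroc replicate 13, the youngest boar at 131 days. The absence of a call depended on the model. Batch as a number called CRY2 (FDR 0.0428) and PER1 (FDR 0.0602), where 814 of 11146 genes were called, beside 196 in the main model. With FCR left out, PER1 was called (FDR 0.0918), where 684 genes were. Without Landrace replicate 18, PER1 was called too (FDR 0.0848). DESeq2 and limma called no member for age, with the same number of members, 2, at an unadjusted p under 0.05.

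The fifth comparison, with FCR, was the one the study was built for, and no clock gene was called. No gene of the whole table passed edgeR's test either (0% called, 968 of 11146 at an unadjusted p under 0.05), while DESeq2 called 5 genes and limma 0, none of them a member. No member had an unadjusted p under 0.05 with any of the 3 tools. CRY2 had the largest estimate, −0.09 ± 0.05 log2 units per 0.1 of FCR (edgeR unadjusted p = 0.118, FDR 0.648). NR1D2 followed with −0.06 ± 0.05, CRY1 with 0.05 ± 0.04, and PER1 had 0.006 ± 0.056. The SE of NR1D1, ARNTL and DBP was 0.12 log2 units per 0.1 of FCR, so a change of that size was not detectable in them. The slope on FCR was also compared between the breeds, and no member differed (0% of all genes called by edgeR, 582 at an unadjusted p under 0.05, and 0 called by limma). PER2 came nearest, with a slope 0.27 ± 0.14 higher in Landrace (edgeR unadjusted p = 0.0601, FDR 0.922).

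Last, the clock genes were compared with each other over the pigs, with the level of ARNTL as the reference. ARNTL and PER2 moved in opposite directions from pig to pig. After adjustment of each gene's log2 CPM for batch, breed, RIN, age and FCR, the Pearson correlation of PER2 with ARNTL over the 41 pigs was −0.689 and the Spearman correlation −0.619, both with a permutation p of 1e-05, the smallest that 100000 permutations can give. Without Landrace replicates 14 and 20, the 2 pigs farthest from the median of ARNTL, it was −0.597. Within batches 2, 3 and 5 it was −0.742, −0.664 and −0.593, with permutation p-values of 0.00312, 0.04099 (all orders, n = 9) and 0.0553. The permutations treat the adjusted values as free to swap between pigs, which holds only roughly after a fitted adjustment. In this way 8 members were compared with ARNTL, with no correction of p for their number. The correlation of PER2 with ARNTL was −0.847 over the 13 Duroc boars and −0.629 over the 28 Landrace boars, a difference that was not tested. Of the other 11145 genes, PER2 had the lowest correlation with ARNTL.

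DBP followed PER2. Its correlation with ARNTL was −0.551 (permutation p = 0.00018, Spearman −0.544 with permutation p = 0.00022), ninth lowest of 11145 genes, and −0.467 without the 2 farthest pigs. Within batches 2, 3 and 5 it was −0.530, −0.615 and −0.525, with permutation p-values of 0.0663 in batch 3 and 0.0973 in batch 5. PER2 and DBP rose and fell together with a correlation of 0.50 (Spearman 0.467), given as a description. The pigs at either end of ARNTL show the spread of the pairing. Outside batch 4, the lowest ARNTL belonged to Duroc replicate 8, with 1.63 CPM of ARNTL, 16.7 of PER2 and 3.00 of DBP. Landrace replicate 20 was next, with 1.76, 21.2 and 12.02 CPM, followed by Landrace replicate 8, with 1.80, 17.7 and 9.40 CPM. At the other end, below Landrace replicate 14, Landrace replicate 6 had 6.52 CPM of ARNTL, 8.96 of PER2 and 2.21 of DBP, and Landrace replicate 19 had 6.26, 14.5 and 5.14 CPM. PER2 was thus above its median of 12.7 CPM in all 3 of the low pigs and in 1 of the 2 high ones. In batch 4, where ARNTL was at 1.32 to 3.81 CPM, DBP lay at 2.67 to 5.39 CPM.

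A model with the level of ARNTL as a term, fitted across all genes, called 2 genes, 0.0179% of those tested: PER2, with −0.42 ± 0.08 log2 units per log2 unit of ARNTL (edgeR FDR 0.0924), and SLC1A3, a glutamate transporter, with −0.42 ± 0.08 (edgeR FDR 0.0924). DBP had a slope of −0.58 ± 0.14 and missed the threshold (edgeR unadjusted p = 0.000243, FDR 0.335). The call of PER2 was near the threshold and was lost without 27 of the 41 pigs, each left out alone, with the highest FDR, 0.604, without Landrace replicate 14, although its slope stayed between −0.48 and −0.36. It was also lost without batch 4 (−0.40, FDR 0.164) and with the Landrace pigs alone (−0.32, FDR 0.916). Of the other members NR1D1 had a slope of 0.47 ± 0.15 (unadjusted p = 0.00308, FDR 0.687), and CRY1, CRY2, CLOCK, PER1 and NR1D2 lay between −0.11 and 0.08.

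**Figure D3:**
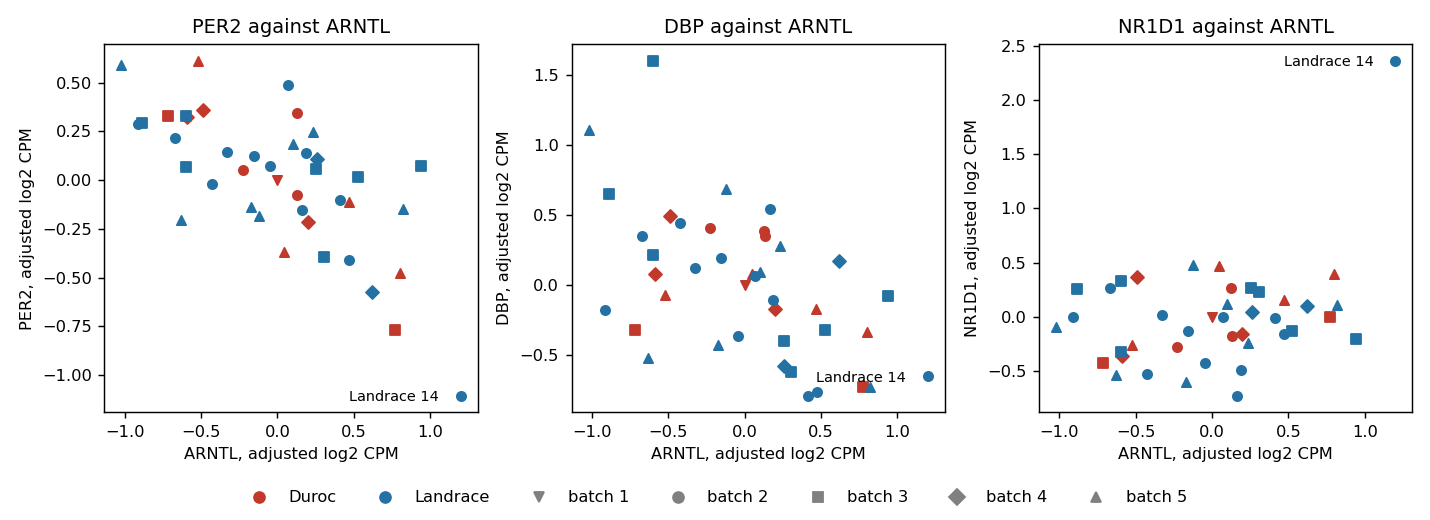
Log2 CPM of PER2, DBP and NR1D1 against that of ARNTL after adjustment for batch, breed, RIN, age and FCR; each point is 1 of 41 pigs, with colour for breed and shape for batch (the only pig of batch 1 falls at 0 by construction). PER2 and DBP fell as ARNTL rose (r = −0.689 and −0.551), and in the NR1D1 panel Landrace replicate 14 lies far above all other points.

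NR1D1, a repressor of ARNTL, had no negative correlation with it over all pigs. Its correlation with ARNTL was 0.357 (permutation p = 0.0187), but the Spearman correlation was 0.217 (permutation p = 0.173) and the Pearson correlation without the 2 farthest pigs 0.144. Without Landrace replicate 14 it was 0.142, while it was 0.510 over the 13 Duroc boars and, within batches 2, 3 and 5, 0.537, −0.035 and 0.488. That pig belongs to batch 2. The correlation of NR1D1 with PER2 was −0.465 over all pigs, −0.170 by rank and −0.137 without that pig. In the model with the level of NR1D1 as a term no member was called, with 3 of 8 at an unadjusted p under 0.05, beside 0.0449% of all genes, which were BCAR1, UCKL1, TNK2, INSIG1 and the clock repressor BHLHE41. With the sum of the strand columns 55 of 11687 genes were called, 42 rising and 13 falling, again none of them a member. The correlation of BHLHE41 with NR1D1 went from 0.586 to 0.379 without the same pig, and that of INSIG1, a brake on cholesterol synthesis, from 0.570 to 0.174.

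Landrace replicate 14 had the highest ARNTL, NR1D1 and CRY2 and the lowest PER2 of the 41 pigs. Its ARNTL was 10.6 CPM, where the next pig had 6.52, and its NR1D1 was 16.5 CPM, where the next had 6.26. Its NR1D1 was the highest in the strand sum too, at 211 CPM against 73.3 to 150 CPM in the others. Its CRY2 stood at 250 CPM and its PER1 at 247 CPM, the second highest, while PER2 stood at 5.31 CPM, below 7.88 CPM in the next, and DBP at 2.03 CPM was second lowest. CLOCK (19.0 CPM), CRY1 (6.88 CPM) and NR1D2 (53.7 CPM) were inside the range of the rest. Of the other clock genes it held the highest BHLHE41, 21.2 CPM against at most 10.8, and the highest CSNK1E, 45.7 CPM against at most 35.1, and its CIART, a repressor of the activator pair, was second highest at 26.9 CPM. Its RIN was 8.2 and its FCR 2.04, both inside the range of its breed, and its age, 147 days, was the lowest of the Landrace boars.

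The remaining pairs of members were looser. Over the 36 pairs the adjusted correlations ran from −0.689 to 0.50, and besides those named above the widest were CRY1 with CLOCK (0.411, Spearman 0.486), PER1 with NR1D1 (0.342, but 0.208 without Landrace replicate 14), PER1 with CLOCK (−0.339) and PER2 with NR1D2 (0.338). PER1 and PER2, though related in sequence and both period genes, had a correlation of −0.038. CRY1 and CRY2 had one of −0.089, and NR1D1 and NR1D2 one of −0.038. ARNTL and CLOCK, the partners of the activating pair, had 0.128. PER1 and CRY2 had a correlation of 0.551 before adjustment and 0.240 after it. These are descriptions, with no test for single pairs.

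**Figure D4:**
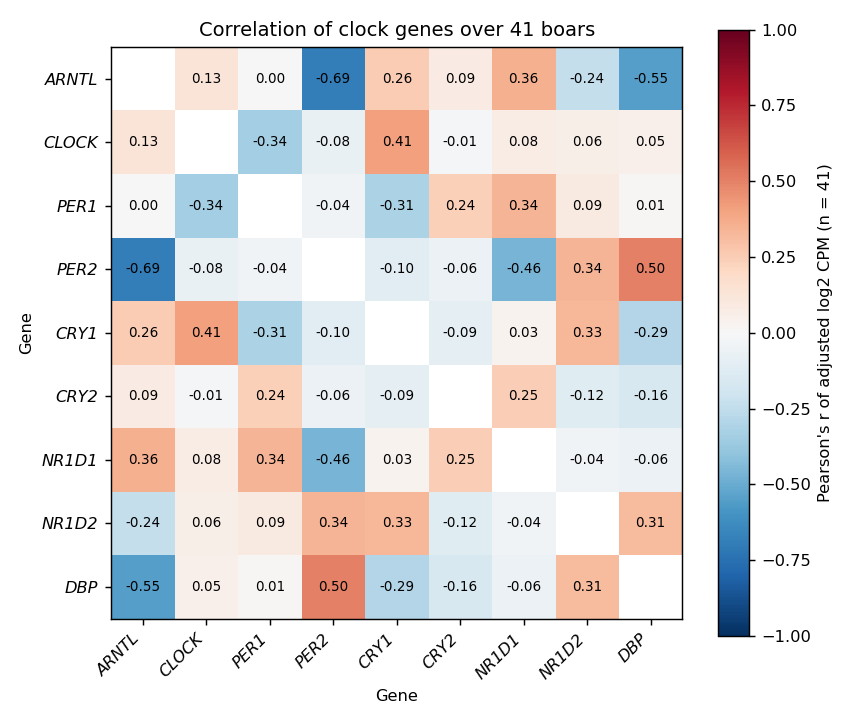
Pearson correlation of the adjusted log2 CPM of each pair of clock genes over 41 pigs (red positive, blue negative). The deepest blue is ARNTL with PER2 (−0.69) and the deepest red PER2 with DBP (0.50), and the paralogue pairs PER1 and PER2, CRY1 and CRY2, and NR1D1 and NR1D2 lie between −0.09 and −0.04.

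The genes whose pattern over the 41 pigs was most like each member were then taken by the same adjusted correlation. Only genes outside the 9 members were eligible, so that these genes are not members was set by the selection. PER1 was most like SIK1 (0.673), a kinase induced by cAMP, and KLF15 (0.663), a glucocorticoid-induced factor of muscle metabolism. PER2 was most like ENSSSCG00000038038 (0.626) and SLC1A3 (0.576). ARNTL was most like YPEL2 (0.603), ENSSSCG00000012654 (0.591), ING1 (0.57), ZNF180 (0.554) and ENSSSCG00000035795 (0.552), and beside PER2 its lowest were SLC1A3 (−0.653), PRIMPOL (−0.619), DYNC1LI2 (−0.619), CEBPG (−0.585) and TMED10 (−0.584). CRY2 was most like MED9 (0.759) and NR1H2 (0.747), and CRY1 most like ENSSSCG00000009341 (0.702) and MED13 (0.635). CLOCK was most like ENSSSCG00000011121 (0.708) and ENSSSCG00000003453 (0.679), NR1D1 most like BCAR1 (0.674) and UCKL1 (0.639), correlations that fell to 0.396 and 0.329 without Landrace replicate 14, NR1D2 most like LCORL (0.658) and CCNT2 (0.650), and DBP most like ENSSSCG00000029199 (0.711) and ITGB6 (0.681). The share of the other genes with a correlation beyond 0.5 in size was 0.341% for ARNTL and 0.359% for PER2, and 2.58% and 2.45% for CRY2 and DBP.

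Of 18 further clock genes, 15 passed the filter on low counts. None was called against the level of ARNTL (1 at an unadjusted p under 0.05), for age or for FCR. BTRC, which tags PER proteins for breakdown, was called for batch (FDR 0.0214) and was 0.35 ± 0.07 log2 units higher in Landrace (FDR 0.000856). NPAS2, a stand-in for CLOCK, was 0.72 ± 0.22 log2 units lower in Landrace (change −0.72, FDR 0.0152 in edgeR). With RIN, BTRC, FBXW11, NOCT and TEF were called rising and RORA and CSNK1D falling. Thus TEF rose by 0.62 ± 0.20 log2 units per RIN unit (FDR 0.00923), while DBP, of the same PAR bZIP family, fell.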

How the data were processed

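The deposited files hold raw counts of read pairs per Ensembl gene for each of 41 pigs. The authors trimmed the reads with Trimmomatic 0.39 and aligned and counted them with STAR 2.7.1a, per the labels, on Sscrofa11.1, with no normalization or filter. The unstranded column was used, as in the study, since the kit did not mark strand (48.9% to 50.1% of stranded counts on 1 strand). Rows naming no gene, 19.1% to 30.1% of pairs and including 6.79% to 8.89% on overlapping genes, were left out. Symbols came from an Ensembl table (14857 of 25880 identifiers matched) and coordinates from RefSeq on the same build. PER3 had no identifier in that table. No sequences were used here.

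Genes were filtered with filterByExpr (minimum count 10, minimum total 15). The joint model (FCR, RIN, age, breed, batch as 5 levels, 32 residual degrees of freedom) was fitted in R 4.3.3 with edgeR 4.0.16 (TMM scaling, quasi-likelihood F test), with the study's FDR threshold of 0.1. The p-values measure the spread between pigs, each sampled 1 time. Alternatives were DESeq2 1.42.0 (at least 5 counts in every pig), limma 3.58.1 with voom, other filters, scaling, covariates and pig sets, and each pig left out. Log2 CPM used a prior count of 1. Correlations used Python 3.11.15, NumPy 2.4.6, SciPy 1.17.1 and pandas 2.3.3 with 100000 permutations, or all permutations under 10 pigs, and plots matplotlib 3.10.9. Tests were two-sided, and the scripts were tested on simulated data.

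Named were the members, genes of other lists called for batch or against ARNTL, the 5 highest and 5 lowest correlates of ARNTL and the 2 highest of each other member. SLC1A3 among the called genes, the genes called against NR1D1, and the values of Landrace replicate 14 and of the other genes named for breed, RIN and batch 4 were chosen after their values were seen. Members and lists were chosen with earlier results of these data known. One further result is not reported here.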

Additional observations from a re-analysis of the deposited data

How the results depend on the processing

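The calls of CRY2 for breed and for RIN held under every alternative fit of the model. Over the alternatives of counts, correlations and within-batch differences, 581 values were taken as the same, 57 moved, 15 weakened and 2 turned. Counts close to each other, such as 3 and 2 members for batch, were taken as the same. Most of these values came from fits with 1 pig left out, many for terms with no called member. The tally therefore does not measure how firm single calls were. Over the alternatives for calls of single members, 484 values stayed the same and 68 weakened. With Landrace pigs only, no member was called for batch or between batches 4 and 2 (0 each), 0 between batches 4 and 3 and 0 against ARNTL, and without batch 4, 1 was called for batch and 0 against ARNTL. Scaling by library size alone moved the median of all genes by 0.30 log2 units per RIN unit and by −0.18 for breed. It called 7 members for RIN, beside 7107 of 11146 genes (5775 in the main fit), and 1 for breed, beside 4117 genes (3692 in the main fit). Between batches 4 and 3 it called 0 members beside 23 genes, and against ARNTL 0 members beside 0 genes. Relative to the shift of the median, CRY2 changed by 0.41 and DBP by −0.69 per RIN unit. Without a filter on low counts, 0 members were called between batches 4 and 3 and 0 against ARNTL. Batch as a number called 2 members for age (CRY2, FDR 0.0428, and PER1, FDR 0.0602), beside 814 of 11146 genes. FCR left out called 1 for age (PER1, FDR 0.0918), beside 684 genes. Age left out called 1 member between batches 4 and 5, beside 813 genes. Batch as a number gave PER1 an FDR of 0.538 for batch. Without pigs of RIN below 7 the call of NR1D2 for RIN was lost (FDR 0.274). With 1 pig left out in turn, members called ranged from 1 to 3 for breed, 0 to 1 for age, 2 to 3 for batch, 2 to 4 for RIN, 1 to 3 between batches 4 and 2, 0 to 1 between batches 4 and 3 and 0 to 1 against ARNTL. Gains were NR1D1 for breed (turned to −0.44, FDR 0.0550) and RIN (−0.51, FDR 0.000905), both without Landrace replicate 14, PER1 for breed and age (FDR 0.0997 and 0.0848, without Landrace replicate 18) and CLOCK for RIN (FDR 0.0752, without Landrace replicate 28). The call of CRY2 between batches 4 and 3 was lost in 9 of 41 such fits. The correlation of PER2 with ARNTL was −0.593 in batch 5, where its permutation p was 0.0553. That of DBP lost its p under 0.05 within batches 3 (−0.615) and 5 (−0.525). That of NR1D1 did so without adjustment (0.211), by rank (0.217), without 2 pigs (0.144) and within batches 2 (0.537) and 5 (0.488), and turned to −0.035 within batch 3. The breed difference of CRY2 was 0.26, 0.0186 and 0.51 within batches 2, 3 and 5 and −0.12 within batch 4, and that of NR1D2 was 0.42, 0.15, 0.0101 and 0.19 within batches 2 to 5, none past an exact p of 0.05. The cause of these changes was not tested. No paired analysis was possible because the replicate numbers only name pigs of separate breeds. The depth limits ARNTL, NR1D1 and DBP most, with medians of 92, 81 and 114 counts per pig.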

Other observations

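Among known daily output genes of muscle, 9 of 10 were measured. NAMPT, the rate-limiting enzyme of NAD salvage, and MYOD1, a myogenic factor bound by the activator pair, were called for batch (edgeR FDR 0.0791 and 0.0536). NAMPT was 0.62 ± 0.17 log2 units higher in batch 4 than in batch 2, USP2 0.44 ± 0.16 and TCAP 0.53 ± 0.19 (edgeR FDR 0.0167, 0.0539 and 0.0634). NAMPT and TCAP were 0.48 ± 0.17 and 0.52 ± 0.19 higher in Landrace (edgeR FDR 0.0385 and 0.0432). With RIN, NAMPT rose by 0.37 ± 0.13 log2 units per unit (edgeR FDR 0.0256), and TCAP fell by 0.59 ± 0.13 (edgeR FDR 0.00037) and USP2 by 0.38 ± 0.11 (edgeR FDR 0.00435). Of all genes, 24.1% were called for batch, 23% between batches 4 and 2, 33.1% for breed and 51.8% for RIN. None of the 9 was called against the level of ARNTL, for age or for FCR. ATF3, an immediate-early gene, was the third most like PER2 of all genes (r = 0.559) and spanned 25.4 to 415 CPM in batch 4, 235.5 CPM in the pig of batch 1 and 3.48 to 131 CPM in the other batches. Of 6 measured immediate-early genes, ATF3, EGR1, IER2 and MYC were called for batch, and of 6 glucocorticoid-responsive genes, SGK1 and ZBTB16 were.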
